A study of Mus musculus with 4 samples.

Results

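Levels of 9 Hedgehog pathway genes were followed in mouse embryonic stem (ES) cells that had been differentiated and sorted into 2 fractions: the ligands Shh, Ihh and Dhh, the receptor Ptch1, the decoy receptor Hhip, the signal transducer Smo, and the transcription factors Gli1, Gli2 and Gli3. They were taken as the genes whose probes carry a matching transcript accession, 9 of 20660 genes with a symbol on the array, covered by 11 probes on 20 spots. Both fractions came from the EB5 line, into which a reporter had been placed that makes the fluorescent protein Venus where Hoxb6 is active. Both were kept for 6 days in co-culture with the OP9 stromal line, and both were selected for Flk-1, a VEGF receptor and the product of Kdr. They differed in reporter signal: Flk-1+ Hoxb6-Venus+ cells, called Venus-positive here, against Flk-1+ Hoxb6-Venus- cells, called Venus-negative. Each fraction was hybridised to 2 single-colour arrays, and this small number limits all precision given below. Whether replicates came from separate cultures is not stated in the labels, so a p-value here reflects only how far these arrays scatter, which may be technical.

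In the Hedgehog pathway a secreted ligand binds Patched, which otherwise holds Smoothened inactive. Active Smoothened, acting at the primary cilium, turns Gli2 and Gli3 from repressor forms towards activator forms, and Gli1, Ptch1 and Hhip are themselves transcribed in response, so that their transcripts are widely used as a readout. In the gastrulating mouse embryo Shh is made in the node and notochord, Ihh in visceral endoderm, where it acts on the formation of blood and vessels of the yolk sac, and Dhh is known from endothelium, Schwann cells and Sertoli cells.

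The arrays gave comparable measurements. Well above background were 50.7% to 53.0% of each array's spots, controls aside, and 0 were saturated. Kdr was bright in both fractions, with a normalised log2 signal of 5.63 ± 0.12 without and 6.07 ± 0.019 with reporter signal (SD, n = 2 each). Hoxb6 was 2.02-fold higher in Venus-positive cells (log2 change 1.01 ± 0.16 SE), with a limma adjusted p of 0.0717, which missed the threshold of 0.05. The arrays lay on 1 slide with 1 scan. The slide column coincided with the fraction, so the 2 cannot be told apart, and the slide row coincided with the replicate number. In bulk RNA, fewer cells of a type and less RNA per cell cannot be told apart.

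Among the 9 genes, Gli1 alone changed past the threshold, falling 5.93-fold in Venus-positive cells. Gli2 and Ptch1 were lower by smaller factors (2.59-fold and 1.86-fold) and missed the threshold by a narrow margin. The single large difference in the other direction was that of the ligand Dhh, 2.57-fold higher in Venus-positive cells but with a wider spread between replicates. Smo, Gli3, Ihh and Hhip did not pass, and Shh was not well above background in either fraction.

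Promoter sequences are shown for Dhh, Ptch1 and Gli2, which had the largest differences among the 7 genes with an entry in RefSeq's promoter table (build GRCm38.p6). Gli1 and Shh had no entry under these symbols, so neither was searched below. Each sequence shown is the 250 bases upstream of the start used in that table, on the strand of the gene, with CpG pairs in capitals. That start lies downstream of the outermost annotated start of the gene, by 22 bases in Dhh, 786 in Gli2 and 7725 in Ptch1, so these windows lie partly or wholly within the annotated genes.
Dhh: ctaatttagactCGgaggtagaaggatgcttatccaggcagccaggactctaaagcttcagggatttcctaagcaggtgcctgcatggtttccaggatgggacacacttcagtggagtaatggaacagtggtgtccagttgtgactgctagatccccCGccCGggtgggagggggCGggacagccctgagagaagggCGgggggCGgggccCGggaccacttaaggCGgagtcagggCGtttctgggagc
Ptch1: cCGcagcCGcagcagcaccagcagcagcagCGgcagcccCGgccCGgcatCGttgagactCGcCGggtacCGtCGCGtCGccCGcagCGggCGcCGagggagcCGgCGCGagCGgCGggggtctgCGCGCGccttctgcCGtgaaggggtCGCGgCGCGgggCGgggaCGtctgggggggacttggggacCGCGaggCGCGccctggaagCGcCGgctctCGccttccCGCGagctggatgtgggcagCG
Gli2: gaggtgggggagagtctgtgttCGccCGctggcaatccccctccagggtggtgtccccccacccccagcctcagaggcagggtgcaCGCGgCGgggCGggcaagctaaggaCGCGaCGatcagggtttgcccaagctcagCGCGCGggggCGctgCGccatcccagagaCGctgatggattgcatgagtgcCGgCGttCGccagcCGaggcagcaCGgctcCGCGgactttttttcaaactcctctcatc
The Dhh sequence lies at chr15:98898541-98898790 on the minus strand, that of Ptch1 at chr13:63565736-63565985 on the minus strand and that of Gli2 at chr1:119053620-119053869 on the minus strand. Of these promoters, Ptch1 had the most CpG pairs, 41 with a G+C share of 78.4%, against 22 and 67.2% in Gli2 and 9 and 59.6% in Dhh. The median over 32851 promoter entries of the same length was 6 CpG pairs and a G+C share of 52.4%. The Gli recognition sequence GACCACCCA was searched on both strands (TGGGTGGTC on the other). With up to 1 mismatch allowed, 0 of the 7 promoters held it, against 5.79% of all entries. An exact match occurred in 0.225% of all entries. This says only that these letters are absent from these windows.

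**Figure D1:**
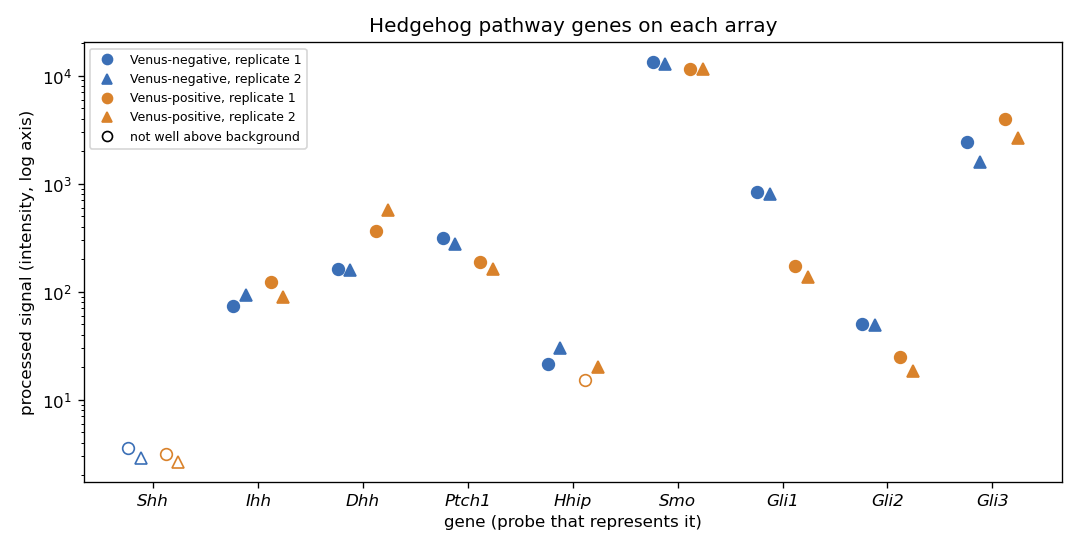
Processed signal (intensity, log axis) of each of the 9 genes on the 4 arrays, before scaling between arrays. Circles are replicate 1 and triangles replicate 2, blue Venus-negative and orange Venus-positive, and open symbols were not well above background. Gli1 falls from 840 and 799 to 173 and 137, and Dhh goes from 162 and 158 to 365 and 575. Heights of different genes are not comparable, since each has its own probe.

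Of the ligands, Shh, the signal of node, notochord and floor plate, had a processed signal of 3.58 and 2.87 on the Venus-negative arrays against 3.17 and 2.65 on the Venus-positive ones. None of these was well above background, a call that began at signals of 11.1 to 14.7 depending on the array, so no fold is given. The Shh probe is printed on 10 spots. On Venus-positive replicate 2, 3 of the 10 were outlier spots and were left out, among them 1 that read 17.1 and was well above background, while the 7 spots used read 2.33 to 3.06.

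Ihh, the visceral endoderm ligand, had processed signals of 73.7 and 92.8 on the Venus-negative arrays against 122 and 88.3 on the Venus-positive ones. The groups overlapped. The log2 change was 0.17 ± 0.25 SE with a 95% interval of -0.53 to 0.87 (limma adjusted p = 0.720), so a difference of up to 0.87 on the log2 scale in favour of Venus-positive cells remains within the interval. Its sign turned with replicate 1 left out, whether Venus-negative (-0.089) or Venus-positive (-0.0089). Of 10 endoderm markers, 4 were tested, all well above background on all 4 arrays, and 0 passed in limma. The summed signal of all 10, in multiples of each array's 75th percentile, was 3.71 and 4.6 in Venus-negative and 7.94 and 9.67 in Venus-positive cells. Most of each sum came from Sox17. Sox17, a factor of endoderm and also of endothelium, read 1040 and 1289 against 3026 and 3585 (log2 change 1.35 ± 0.24 SE, limma adjusted p = 0.0872). The other 3 tested had negative log2 changes, and the apolipoprotein genes Apoa1 and Apob were not well above background on any array. The part of endoderm cells in the Ihh values was not tested.

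Dhh read 162 and 158 on the Venus-negative arrays against 365 and 575 on the Venus-positive ones. The groups did not overlap, and the Venus-positive replicates lay 0.76 apart on the log2 scale against 0.15 for the Venus-negative ones. The log2 change was 1.36 ± 0.30 SE with a 95% interval of 0.52 to 2.20, and the limma adjusted p of 0.114 missed the threshold. In size this difference was the 234th highest of 13926 genes tested. Endothelial markers moved the same way. Their summed signal, in multiples of each array's 75th percentile, was 57.4 and 80.8 in Venus-negative and 186 and 221 in Venus-positive cells. Of these markers, 10 of 10 were well above background on all 4 arrays, and 3 of 10 rose past the threshold, against 0.984% of all genes. The part of endothelial cells in the Dhh difference was not tested.

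At the level of receptors, Ptch1, the Patched receptor and a transcriptional target of the pathway, read 311 and 274 on the Venus-negative arrays against 188 and 162 on the Venus-positive ones. Both Venus-positive values lay below both Venus-negative ones, with replicates 0.11 apart or less on the log2 scale. The log2 change was -0.90 ± 0.10 SE with a 95% interval of -1.19 to -0.61 (limma adjusted p = 0.0512). The adjusted p was 0.0483 when 27899 probes were tested one by one, 0.0436 when only probes well above background on all 4 arrays were kept, and 0.0309 with model-based background correction (normexp), where the log2 change was -0.65. It was 0.0314 with a signal-dependent variance prior. Over all alternatives it ranged from 0.0309 to 0.208, the highest being with 1 array left out.

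Hhip, a membrane protein that binds and sequesters ligand and is also a target gene, was dim. Its brighter probe read 21.3 and 30.1 on the Venus-negative arrays against 15.3 and 20.1 on the Venus-positive ones and passed the background criterion on 1 of 2 Venus-positive arrays. The log2 change of -0.69 ± 0.32 SE (95% interval -1.60 to 0.22) had a limma adjusted p of 0.298. It was -0.19 with normexp, -0.34 when Venus-negative replicate 2 was left out and -0.44 when Venus-positive replicate 1 was. Without Venus-negative replicate 1 it was -1.03, and without Venus-positive replicate 2 it was -0.94. Replicate 2 was the higher in both fractions. With the replicate number as a block the log2 change was -0.69 with a smaller SE of 0.10 (limma adjusted p = 0.0686), still short of the threshold. A second Hhip probe read 2.90 to 3.70 and was not well above background on any array.

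Smo, which carries the signal across the membrane, was bright on its representing probe, at 13236 and 12925 on the Venus-negative arrays against 11450.5 and 11619 on the Venus-positive ones. The groups did not overlap, and the log2 change was -0.34 ± 0.12 SE with a 95% interval of -0.67 to -0.0033 (limma adjusted p = 0.208). A second probe read 384 and 447 against 384 and 400, with overlapping groups and a log2 change of -0.24 ± 0.18 SE (limma adjusted p = 0.492). Both probes thus gave small negative values that missed the threshold.

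Among the Gli factors, Gli1, an activator and the most direct transcriptional target of the pathway, showed the largest change of the 9 genes. Its processed signal was 840 and 799 on the Venus-negative arrays against 173 and 137 on the Venus-positive ones. Normalised log2 signals were 1.14 ± 0.08 (SD, n = 2) and -1.42 ± 0.16 (SD, n = 2), and the closest arrays of the 2 fractions were 2.40 apart, against 0.22 or less between replicates. The log2 change was -2.57 ± 0.13 SE with a 95% interval of -2.94 to -2.20 (limma adjusted p = 0.0342), the 130th lowest of 13926 genes. The call was lost without any 1 of the 4 arrays (adjusted p = 0.127 to 0.161, log2 change -2.46 to -2.68) and with dim probes left in (adjusted p = 0.143), settings in which 0 of all genes passed in limma. At an unadjusted p under 0.05, 1111 to 1331 genes were lower and 1105 to 1514 higher with 1 array left out in limma, and Gli1 was among the lower ones each time.

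Gli2, the main activator of the primary response in mouse, was low, at 50.7 and 48.9 on the Venus-negative arrays against 24.8 and 18.5 on the Venus-positive ones. It was well above background on all 4, and the groups did not overlap. The log2 change was -1.37 ± 0.16 SE with a 95% interval of -1.81 to -0.93 (limma adjusted p = 0.0512). Outside the alternatives below, Gli2 passed when 27899 probes were tested one by one (limma adjusted p = 0.0482). It passed in 4 of 13 alternatives, among them median centring (-1.30, adjusted p = 0.0352), and with normexp the log2 change was -0.49 (adjusted p = 0.0557), a setting whose added offset makes changes of a dim signal small. Over all alternatives the adjusted p ranged from 0.0352 to 0.178.

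Gli3, which acts mainly as a repressor where no ligand is received, was bright and read 2445 and 1586 on the Venus-negative arrays against 3977 and 2655 on the Venus-positive ones. The groups did not overlap but were 0.11 apart on the log2 scale, less than the 0.44 and 0.48 between replicates. Replicate 1 was the higher in both fractions. The log2 change of 0.57 ± 0.25 SE had a 95% interval of -0.15 to 1.28 and a limma adjusted p of 0.282. It was 0.33 without Venus-positive replicate 1 and 0.35 without Venus-negative replicate 2, against 0.78 and 0.80 without the other arrays. With the replicate number as a block it was 0.57 with a smaller SE of 0.08 (limma adjusted p = 0.0691), still short of the threshold.

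**Figure D2:**
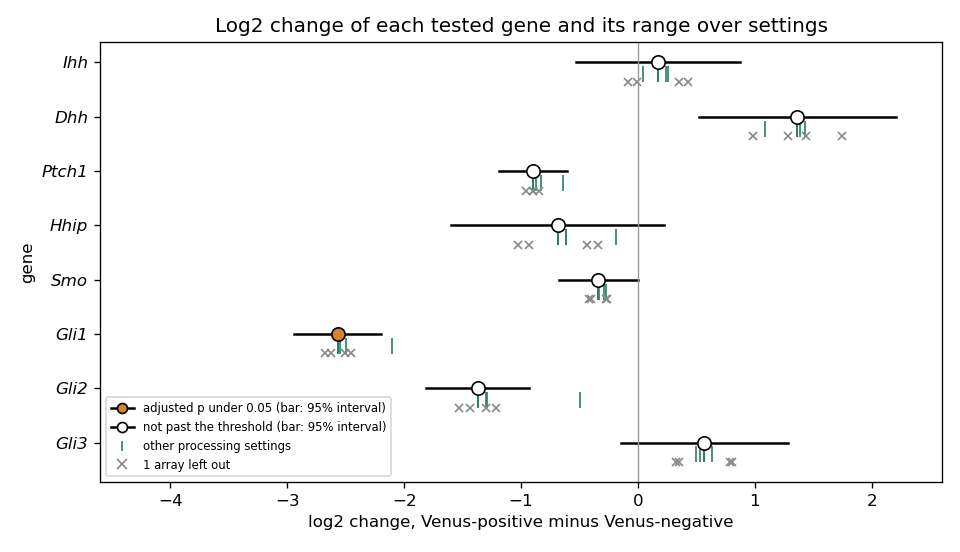
Log2 change, Venus-positive minus Venus-negative, of the 8 tested genes (circles, with 95% intervals from limma), the values under other processing settings (green ticks) and with 1 array left out (grey crosses). Gli1 lies farthest from 0, at -2.57, and stays between -2.10 and -2.68 throughout. Gli2 moves from -1.37 to -0.49 with normexp, and Ihh crosses 0.

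Of the 9 genes, 8 passed the filter on dim probes and were tested, 7 of them well above background on all 4 arrays. Of these 8, 1 was called lower and 0 higher, against 2.83% of all 13926 genes called in either direction, 1.85% lower and 0.984% higher. At an unadjusted p under 0.05 in limma, Gli1, Ptch1, Gli2 and Smo were lower and Dhh was higher, at a threshold that 11.9% of all genes passed as lower and 14.1% as higher. The arrays of the 2 fractions did not overlap for 7 of the 8 genes, against 61.7% of all genes, with Venus-positive cells lower for 5 (29.4% of all genes) and higher for 2 (32.3%), so that lack of overlap says little about them. Their log2 changes had a median of -0.51, against 0.01 over all genes tested, with 5 negative and 3 positive.

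In the wider pathway, the called genes were Gpc3 and Boc, from the list of co-receptors and regulators of Smo. Of the 8 genes of this list, 2 fell past the threshold, against 1.85% of all genes, and 0 rose. In this list 6 of the 8 log2 changes lay below 0 (median -0.46). Gpc3, a glypican that competes with Patched for ligand and restrains the pathway, read 5287 and 4360 on the Venus-negative arrays against 1398 and 1130 on the Venus-positive ones, a 4.26-fold fall (log2 change -2.09 ± 0.12 SE, limma adjusted p = 0.0342). Boc, a ligand co-receptor, read 253 and 231 against 102 and 103, a 2.63-fold fall (-1.39 ± 0.11 SE, adjusted p = 0.0353). For both genes the Venus-positive values lay well below the Venus-negative ones. Gas1, a further co-receptor, read 698 and 525 against 241 and 165, and its log2 change of -1.76 ± 0.20 SE missed the threshold (adjusted p = 0.0512) but passed in 6 of 13 alternatives: normexp, median centring, the stricter background filter, the mean of all probes, a signal-dependent variance prior and the replicate number as a block. In contrast to Boc, the related co-receptor Cdon had a log2 change of -0.17 ± 0.14 SE (adjusted p = 0.545). Cdon is named after its values were seen, and the difference between Boc and Cdon was not tested.

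Other roles of the pathway held 0 genes past the threshold in limma. Of 6 genes for ligand processing and release, 4 were tested, with a median log2 change of -0.43. Scube1, a secreted protein that helps to release ligand, stood at -2.03 ± 0.40 SE (adjusted p = 0.0990), from 117 and 49.6 to 20.3 and 21.3, and Scube2, which does the same, at -0.59 ± 0.17 SE (adjusted p = 0.154). Hhat, the acyltransferase that puts palmitate on the ligand, stood at 0.54 ± 0.10 SE (adjusted p = 0.0955). The 16 Gli regulators and cilium genes differed least, with a median of 0.10. Among them the largest values were those of Evc (-0.52 ± 0.20 SE) and Evc2 (-0.44 ± 0.12 SE), which relay the Smoothened signal at the base of the cilium, and Tulp3 (-0.37 ± 0.09 SE), which restrains the pathway there. Their adjusted p-values were 0.238, 0.143 and 0.136. Sufu, the main inhibitor of Gli proteins and named after its value was seen, stood at 0.10 ± 0.10 SE (adjusted p = 0.574).

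Genes known to respond to Hedgehog signalling in mesoderm did not move in 1 direction. Of 14 such genes, 9 were tested, 5 with a positive and 4 with a negative log2 change and a median of 0.14. Foxf2, a forkhead factor of gut mesenchyme, read 37.4 and 32.4 on the Venus-negative arrays against 196 and 91.9 on the Venus-positive ones (log2 change 1.79 ± 0.37 SE, limma adjusted p = 0.107). Nr2f2, a nuclear receptor of venous endothelium and mesenchyme, read 279 and 374 against 972 and 1440 (1.72 ± 0.34 SE, adjusted p = 0.103). Bcl2, an inhibitor of cell death, read 1090 and 896 against 2196 and 2323 (1.04 ± 0.12 SE, adjusted p = 0.0529). All of these were higher on both Venus-positive arrays, and none passed the threshold. Bcl2 passed in 3 of the 13 alternatives (normexp, the stricter filter and the signal-dependent prior), and Nr2f2 in 2 (the signal-dependent prior and the replicate block). Ccnd2, of the same list and named after its values were seen, was lower in Venus-positive cells (-0.72 ± 0.10 SE, limma adjusted p = 0.0653). It passed as lower in 2 alternatives (normexp and the signal-dependent prior). Of 6 neural tube genes, 3 were tested: Foxa2, a floor plate, node and endoderm factor, had a log2 change of -1.19 ± 0.27 SE (adjusted p = 0.122), Nkx6-1 one of 0.67 ± 0.28 SE (adjusted p = 0.267) and Nkx2-2 one of 0.19 ± 0.24 SE (adjusted p = 0.682). Over these lists, 40 of 50 genes were tested, 2 were lower (5% of those tested, against 1.85% of all genes) and 0 higher, with a median of -0.057.

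**Figure D3:**
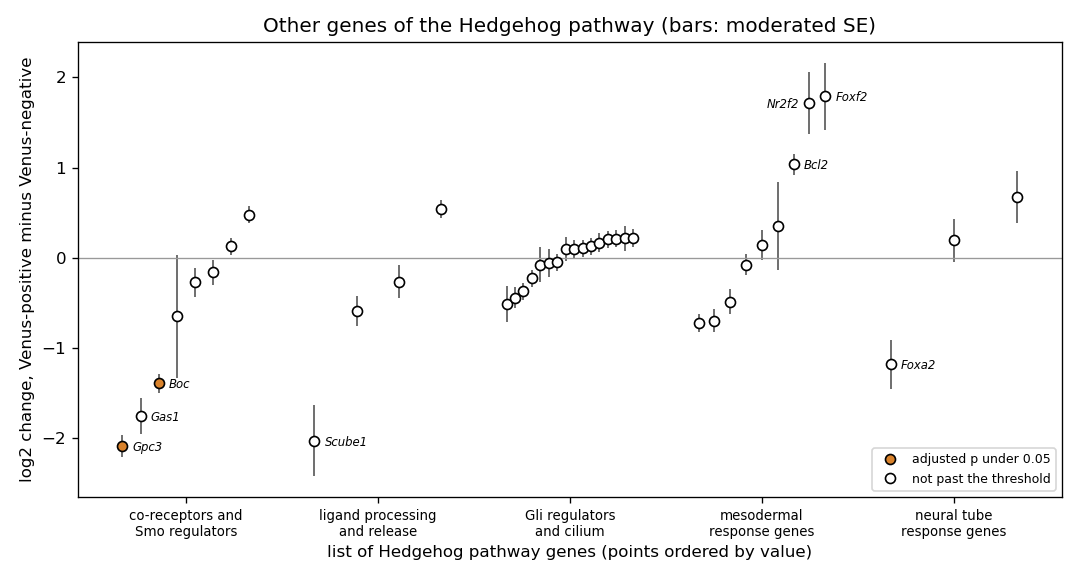
Log2 change, Venus-positive minus Venus-negative, of the 40 tested genes of the wider pathway, grouped by role, with the moderated SE as bars. The 2 filled points are Gpc3 (-2.09) and Boc (-1.39), both from the list of co-receptors and Smo regulators. The Gli regulators and cilium genes all lie between -0.52 and 0.22.

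Of 8 marker lists of other cell types, those of the primitive streak and the endothelium held genes past the threshold. The summed signal of 8 primitive streak markers, in multiples of each array's 75th percentile, was 75.3 and 61.3 in Venus-negative and 32.6 and 18.9 in Venus-positive cells. Of these, 5 of the 8 fell past the threshold, against 1.85% of all genes, and 8 of 8 log2 changes were negative. The streak factors Gsc and Mixl1 had log2 changes of -5.33 ± 0.37 SE and -5.15 ± 0.42 SE (limma adjusted p = 0.0349 and 0.0367). Most of each streak sum came from T and Evx1, neither of which passed. Their log2 changes were -0.73 ± 0.25 SE and -0.87 ± 0.43 SE (limma adjusted p = 0.202 and 0.317). The log2 changes of this list thus shared the sign of Gli1 but differed widely in size. The part of this list in the Gli1 difference was not tested. Node and notochord markers summed to 22.2 and 16.9 against 13.8 and 9.95, mostly from T, 0 of the 5 tested passed in limma, and the notochord gene Noto was not well above background on any array. Markers of OP9 stroma and fibroblasts summed to 55.4 and 48.9 against 48.1 and 34.8, mostly from Col1a2 (log2 change -0.28 ± 0.18 SE). Of the 9 tested, 0 passed in limma, with 7 negative and 2 positive log2 changes. Thy1 stood at -1.60 ± 0.39 SE and Pdgfrb at -0.90 ± 0.15 SE (limma adjusted p = 0.128 and 0.0819). In the lists of undifferentiated ES cells (17.9 and 14.6 against 20.5 and 14.8) and neural cells (0.80 and 0.54 against 0.84 and 0.67) the sums of the fractions overlapped, and that of blood cells was 73.2 and 82.3 against 60.9 and 68.3. None of the genes tested in these lists passed in limma. Most of each ES cell sum came from Klf4 (log2 change 0.51 ± 0.21 SE, limma adjusted p = 0.254). In contrast, Pou5f1 read 1049 and 603 on the Venus-negative arrays against 222 and 130 on the Venus-positive ones. Its log2 change was -2.38 ± 0.34 SE (limma adjusted p = 0.0663). Of the 8 ES cell markers, 6 had negative and 2 positive log2 changes. Klf4, Pou5f1, T, Evx1 and Col1a2 are named after their values were seen.

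**Figure D4:**
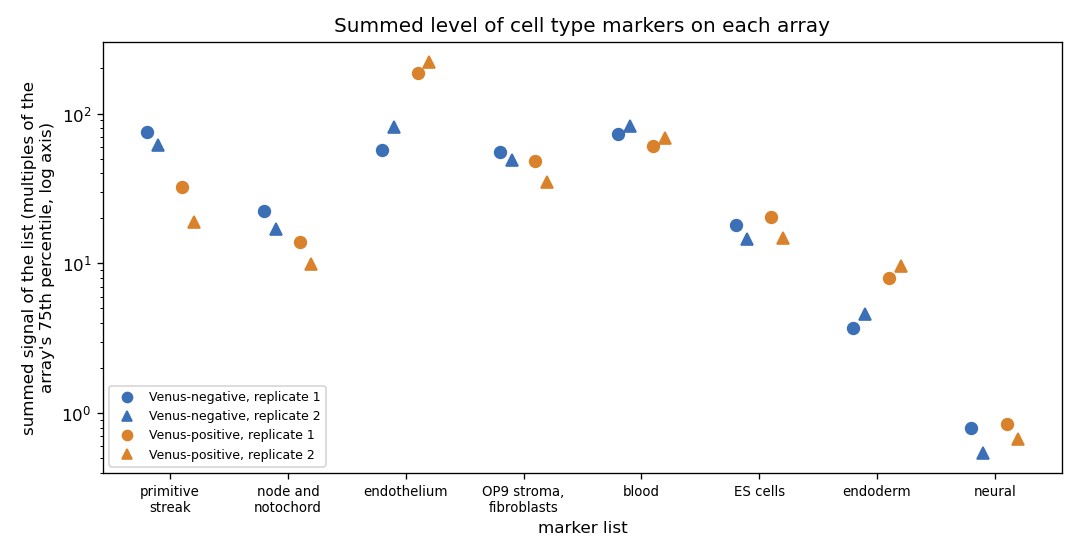
Summed processed signal of each marker list on the 4 arrays, in multiples of the array's 75th percentile (log axis), with circles for replicate 1 and triangles for replicate 2. The primitive streak sum, mostly from T and Evx1, is lower in both Venus-positive arrays (32.6 and 18.9 against 75.3 and 61.3). The endothelial sum is higher (186 and 221 against 57.4 and 80.8). Levels of different lists are not comparable.

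The pattern of Gli1 over the 4 arrays was compared with that of 13228 other genes well above background on all of them, by the root mean square distance between log2 signals centred on each gene's mean. The closest were Dusp9, a phosphatase of MAP kinases (distance 0.055, log2 change -2.48 ± 0.12 SE), and Foxh1, a transcription factor of the Nodal response (0.078, -2.51 ± 0.11 SE). Next came the integrin gene Itga8 (0.11, -2.56 ± 0.10 SE), the matrix glycoprotein gene Emilin2 (0.11, -2.39 ± 0.10 SE) and Atp1b2, a subunit of the sodium pump (0.12, -2.69 ± 0.19 SE). With 4 arrays this likeness describes a shared size of difference and little else.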

How the data were processed

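Total RNA of 2 Flk-1+ fractions, 2 arrays each, was labelled with Cy3. Per the file headers, Agilent Feature Extraction (version 10.10.1.1) made the deposited scanner tables, which hold an intensity for each spot; their processed signal is background-corrected and, from the values, not scaled between arrays. The authors' deposited table of values, set against these, held the same intensity times 1 constant per array (1.98 to 2.44), linear and uncentred, with column medians of 38.1 to 42.3. Of 62976 spots, 59305 were not controls; 152 to 196 outlier spots per array were left out. Flags per spot are those deposited.

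Log2 signals were centred on each array's 75th percentile and averaged over spots of a probe. A probe was kept where both arrays of either fraction showed it well above background. Accessions were matched to symbols through a RefSeq table of GRCm38.p6 (21465 of 37881 distinct accessions). Each gene was represented by its brightest probe, giving 23548 features, 13926 of them genes. Fractions were compared in R 4.3.3 with limma (version 3.58.1), adjusted by Benjamini-Hochberg over all features, threshold 0.05; the method was tested on simulated data. SE is the moderated standard error. Normexp used median spot signals with an offset of 50, since the tables hold no mean signal.

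The text names the 9 genes, the called and up to 3 largest members of each pathway list, up to 2 of a marker list, and the 5 genes closest to Gli1. The members and lists were chosen with earlier results of these data known; 1 gene of the lists is not reported here. Per the labels and headers, same-numbered replicates share a number and a slide row, and whether they share a culture is not stated.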

Additional observations from a re-analysis of the deposited data

How the results depend on the processing

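Dhh, Smo, Gli3 and Hhip kept their direction and their side of the threshold under all alternatives in which they were tested. Gli1 (-2.57) was not called when dim probes were kept. Ptch1 passed with normexp (-0.65), with probes well above background on all 4 arrays (-0.90) and with a signal-dependent variance prior (-0.90). Gli2 passed with median centring (-1.30), quantile normalization (-1.29), probes above background on all 4 arrays (-1.37) and the signal-dependent prior (-1.37). Accordingly the members called lower numbered 2 with normexp, median centring or quantile normalization, 3 with the stricter filter or the signal-dependent prior, and 0 with dim probes kept; the cause was not tested. Ihh turned to -0.089 without Venus-negative replicate 1, and with Venus-positive replicate 1 left out it stood at -0.0089.

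Other pathway genes called lower numbered 4 with normexp or the signal-dependent prior and 0 with dim probes kept, against 2 in the reported fit; those called higher numbered 2 with normexp, 3 with the signal-dependent prior and 1 with the stricter filter, against 0. Over all genes, 137 were higher and 257 lower. Normexp gave 493 and 539, the signal-dependent prior 597 and 650, median centring 259 and 296, and keeping dim probes 0 and 0 (1736 and 1783 at an unadjusted p under 0.05). The authors' value table gave the reported counts.

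With the replicate number as a block, 290 genes were higher and 421 lower, 1 other pathway gene (Nr2f2) was higher and 3 were lower (Gas1 beside Gpc3 and Boc), and no member changed its call. Deviations of same-numbered arrays correlated at 0.414 over features, a hint from the data and not from the design.

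With any 1 array left out, 0 members, 0 other pathway genes and 0 of all genes were called in limma (1105 to 1514 higher and 1111 to 1331 lower at an unadjusted p under 0.05). Log2 changes then ranged from -2.68 to -2.46 (Gli1), -1.53 to -1.21 (Gli2), -0.96 to -0.84 (Ptch1), -0.09 to 0.43 (Ihh), 0.98 to 1.74 (Dhh), -0.42 to -0.26 (Smo), 0.33 to 0.80 (Gli3) and -1.03 to -0.34 (Hhip). Signals near background limit Shh, Hhip and Gli2.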
